A study of Mus musculus with 6 samples.

Results

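The genes of oxygen sensing were examined in endothelial cells (EC, the cells that line blood vessels) sorted from mouse lung. The 8 genes named for this purpose were Hif1a, Epas1, Hif3a, Egln1, Egln3, Vhl, Adm and Ndrg1, and they were looked up by symbol among 12623 genes. 6 of the 8 matched a transcript row, 1 row each. Hif3a and Egln3 matched none by symbol, older name or RefSeq accession and were not analysed here. RNA-seq libraries came from untreated C57BL/6N mice, 3 libraries from infant and 3 from young adult animals, and no transgene or deletion was involved. According to the study's methods, living lung cells carrying CD31 and CD34 and lacking PTPRC, LYVE1, PDPN and LY76 were collected by flow cytometry after collagenase digestion. How many animals went into a library is not given in the sources used here. The study asked which genes change as lung EC pass from vessel growth to quiescence.

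Hypoxia-inducible factors (HIF) are transcription factors made of an oxygen-labile alpha subunit (encoded by Hif1a, Epas1 or Hif3a) and a stable beta subunit (encoded by Arnt). With oxygen present, prolyl hydroxylases of the Egln family mark the alpha subunit, and the ubiquitin ligase subunit encoded by Vhl binds the mark and sends the protein to the proteasome. In low oxygen the alpha subunit accumulates and binds DNA at a short core motif near genes such as Adm, which encodes the vasodilator and vessel-protecting peptide adrenomedullin, and Ndrg1, which encodes a stress-responsive cytoplasmic protein. Control by oxygen acts mostly on the protein, which RNA-seq does not measure. Epas1 is known as the alpha subunit gene most typical of EC.

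The promoter letters of the 3 measured genes that hold the core motif are shown. Adm was the one gene of the 6 called on the log2(RPKM + 1) scale used below. Hif1a and Egln1 encode a factor and a sensor of the pathway, and which factor acts on Adm in these cells was not tested. RefSeq promoters were found for 6 of the 8 genes (all but Epas1 and Ndrg1), and the 250 bases before each start were searched for ACGTG and GCGTG on both strands, so that CACGT and CACGC count as matches on the opposite strand. The motif stood in 5 of these 6 windows, against 55.0% of 11533 windows of tested genes and 38.6% of all 32851 windows. It was also present for Hif3a and Egln3, and the Vhl window held none. Each sequence is given 5′ to 3′ on the strand of its gene, build GRCm38.p6, with motif letters in capitals.
Adm, chr7:110627547-110627627, plus strand, upstream of the first exon: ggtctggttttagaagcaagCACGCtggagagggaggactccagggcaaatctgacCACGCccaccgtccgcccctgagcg
Hif1a, chr12:73907712-73907821, plus strand, before the start of the RefSeq entry and inside the first intron of a longer transcript: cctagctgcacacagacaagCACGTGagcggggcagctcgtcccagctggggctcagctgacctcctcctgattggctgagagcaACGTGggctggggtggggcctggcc
Egln1, chr8:124949298-124949400, minus strand, upstream of the first exon: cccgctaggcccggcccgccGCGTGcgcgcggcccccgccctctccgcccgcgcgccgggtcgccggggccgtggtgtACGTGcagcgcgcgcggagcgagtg
In Adm the matches began 90 and 54 bases before the start and both lay on the opposite strand. In Hif1a they began 135 and 70 bases before it. The first of these was CACGTG, which reads as ACGTG on both strands and was counted once. In Egln1 they began 126 and 68 bases before the start. A match is a run of letters and not a measured binding site.

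Values are the authors' RPKM (reads scaled by transcript length and by the mapped reads of the library), so that levels can be compared between genes, and they are rounded to 1 decimal. Where 3 values are given for a group, they stand in the order of its replicates 1 to 3. Read counts were not used here. The study's methods give only an average coverage, and how deeply each single library was sequenced is not given in the sources used here. Fold changes are young adult minus infant on log2(RPKM + 1), which understates the change of genes with low RPKM, and the test was limma with Benjamini-Hochberg adjustment over 12458 genes. A gene passed the test at an adjusted p under 0.05 and was called when it also moved by more than 0.81 on that log2 scale. This is the study's fold threshold applied to log2(RPKM + 1), where it is stricter for low genes. Of all genes tested, 11.4% were called (3.33% with higher and 8.1% with lower levels in young adult EC), and 25.5% passed the test (9.26% higher and 16.2% lower).

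Libraries differed in ways that may touch these results. The 14 endothelial markers summed to 3035 to 4485 RPKM in infant and to 4791 to 5294 RPKM in young adult libraries, and none of the 14 was at 0. Of these 14, 11 were higher and 3 lower in young adult EC, 1 passed the test (higher) and 0 were called. The sum is weighted to abundant markers, above all Egfl7, with a mean of 1236 RPKM in infant and 1893 RPKM in young adult libraries. Of markers of other cells, all 11 tested fibroblast genes were lower in young adult EC and 10 were called (summed level 334.7 to 1312 against 11.5 to 25.8 RPKM). Among the infant libraries, replicate 2 had the lowest fibroblast and mural and the highest endothelial level. Mural (10 of 11), epithelial (5 of 12), leukocyte (3 of 10) and erythroid markers (7 of 7) were likewise called lower in the numbers given, and no library was at 0 for any of these lists. Summed levels ranged from 81.5 to 253.8 against 13.1 to 19.2 RPKM for mural, from 6537 to 11416 against 1823 to 8401 for epithelial, from 331.1 to 528.1 against 142.0 to 564.6 for leukocyte and from 9656 to 79864 against 822.2 to 1351 RPKM for erythroid genes. 4 Y-linked genes summed to 42.2 to 47.0 RPKM in the infant libraries and were listed at 0 in every young adult library, so that age and sex cannot be told apart, although the study's methods name female mice. The part of these differences in the results that follow was not tested.

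**Figure D1:**
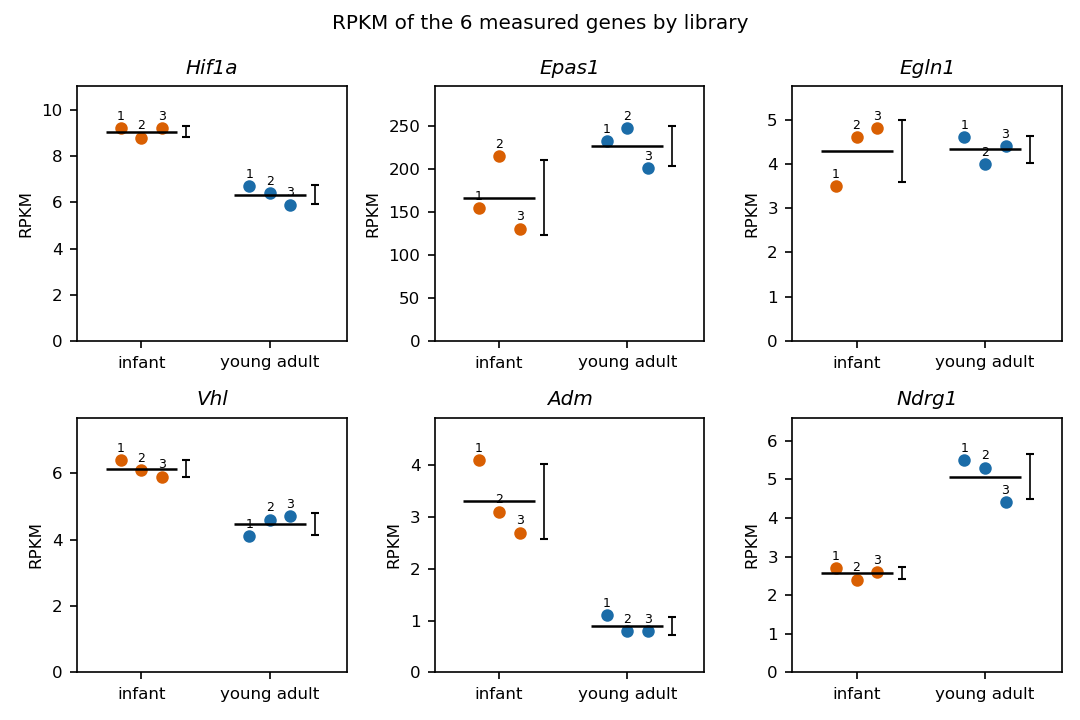
RPKM (vertical axis, from 0, a scale of its own in each panel) of the 6 measured genes in infant and young adult libraries. Points are libraries labelled by replicate number, horizontal lines are group means and side bars are 1 SD (n = 3). The groups are apart in Hif1a, Vhl, Adm and Ndrg1 and overlap in Epas1 and Egln1, and infant replicate 2 (214.8 RPKM) lies above young adult replicate 3 (200.4 RPKM) in Epas1.

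Of the 6 measured genes, 4 passed the test (66.7%, against 25.5% of all genes), and only Adm was called (16.7%, against 11.4% of all genes), with a lower level in young adult EC. Hif1a and Vhl were lower by less than the fold threshold and Ndrg1 was higher by less than it. Epas1 and Egln1 did not pass. The groups did not overlap in 4 of the 6 genes, against 43.4% of all genes tested (16.4% higher and 27.1% lower). The 3 lower ones were Hif1a, Vhl and Adm and the higher one was Ndrg1.

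The alpha subunit genes differed widely in level. Epas1 (chromosome 17, 86753864 to 86833410, transcript NM_010137) measured 154.0, 214.8 and 130.5 RPKM in infants, and in young adults it was at 231.7, 246.7 and 200.4 RPKM. It ranked between 134 and 286 among the tested genes in each library. The means were 166.4 ± 43.5 and 226.3 ± 23.6 RPKM (SD, n = 3 each), a ratio of 1.36, and the log2 fold change was 0.47 with a standard error of 0.20 (95% interval 0.01 to 0.92, limma adjusted p 0.115).

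Whether Epas1 passed the test turned on infant replicate 2, which lay nearer to the young adult libraries than to the other infant ones. Without it, the log2 fold change was 0.67 and the limma adjusted p 0.00782. Without infant replicate 3, the lowest library, the log2 fold change was 0.31 and the limma adjusted p 0.293. Weights estimated for each library also let it pass (0.62, adjusted p 0.0171), while over 22 alternatives (all but the test against the fold threshold itself) that p ranged from 0.00782 to 0.91. Summed endothelial markers had the same order as Epas1 among the infant libraries, highest in replicate 2 and lowest in replicate 3. Among the young adult libraries the order differed. There the markers summed to 4791, 5031 and 5294 RPKM, highest in replicate 3, where Epas1 was lowest. Per 1000 RPKM of these markers, Epas1 was at 45.9, 47.9 and 43.0 (infant) and at 48.4, 49.0 and 37.9 (young adult), and on that scale the groups overlapped. In libraries of sorted cells, a smaller share of a cell type and less RNA per cell cannot be told apart.

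Hif1a (chromosome 12, 73901324 to 73947554, transcript NM_010431) measured 9.2, 8.8 and 9.2 RPKM in the infant libraries. The young adult libraries measured 6.7, 6.4 and 5.9 RPKM. All 3 young adult values were under the lowest infant value, and the spread within each group was small. The means were 9.07 ± 0.231 and 6.33 ± 0.404 RPKM (SD, n = 3 each), a ratio of 0.699, with a log2 fold change of -0.46 ± 0.09 (SE, 95% interval -0.67 to -0.25, limma adjusted p 0.0123). Hif1a passed the test in each of the 6 fits that left out 1 library, and the difference stayed under the fold threshold in each. The limma adjusted p was 0.0441, 0.0107 or 0.0452 when infant replicate 1, 2 or 3 was left out. It was 0.0359, 0.0485 or 0.041 when young adult replicate 1, 2 or 3 was, so most of these fits passed narrowly. Among the scalings Hif1a was called only after rescaling to the endothelial markers (-0.90), which lowered most genes.

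The balance of the alpha subunit genes was compared within each library, where library scaling cancels. A difference in cell mixture between libraries does not cancel, and its part in the ratio was not tested. Epas1 exceeded Hif1a by 16.7, 24.4 and 14.2 times in the infant libraries. In the young adult libraries it did so by 34.6, 38.5 and 34.0 times. The groups did not overlap, and Epas1 made up 93.4% to 96.1% of the sum of both in infant and 97.1% to 97.5% in young adult libraries. The log2 ratio was 4.17 ± 0.40 (infant) and 5.16 ± 0.10 (young adult), with SD and n = 3 libraries each. It was thus 0.99 higher in young adults, with a two-sided p of 0.1 by exact permutation. With 3 against 3 libraries this permutation test cannot give a smaller p, so it could not pass 0.05. Without infant replicate 2 the difference was 1.21, and in the other fits without 1 library it lay between 0.82 and 1.02.

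**Figure D2:**
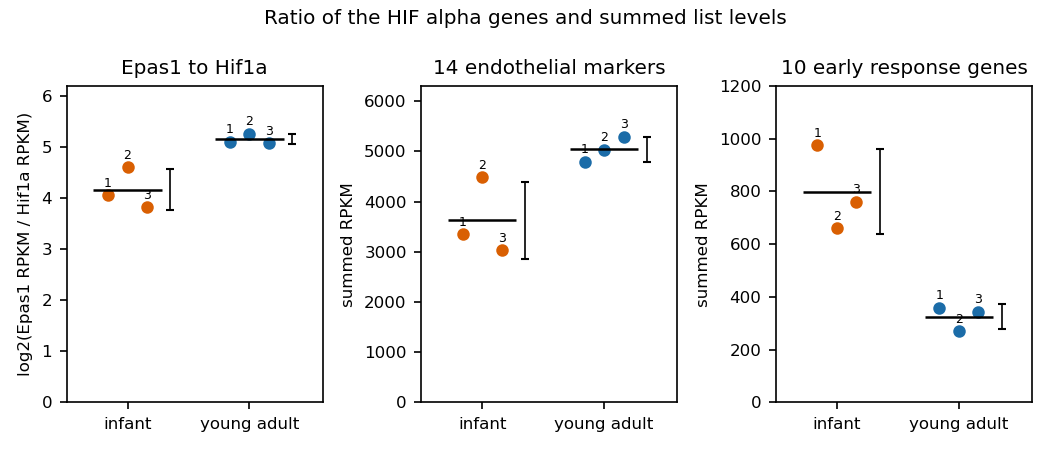
Left, log2 of the ratio of Epas1 RPKM to Hif1a RPKM in each library. Middle and right, summed RPKM of 14 endothelial markers and of 10 early response genes; points are libraries labelled by replicate number, lines are group means and side bars 1 SD (n = 3). The ratio lies between 3.83 and 4.61 in infant and between 5.09 and 5.27 in young adult libraries, and infant replicate 2 is the highest infant library for the ratio and for the endothelial markers.

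Of the sensors, Egln1 (chromosome 8, 124908587 to 124949254), which encodes the main prolyl hydroxylase acting on HIF alpha subunits, measured 3.5, 4.6 and 4.8 RPKM (infant) and 4.6, 4.0 and 4.4 RPKM (young adult). The groups overlapped. The log2 fold change was 0.02 ± 0.13 (SE, 95% interval -0.28 to 0.31, limma adjusted p 0.938), and its sign turned when infant replicate 1 (-0.10) or young adult replicate 1 (-0.02) was left out and when the libraries were rescaled without globin genes (-0.07). Egln2, the other measured hydroxylase gene of the family, measured 7.7, 7.9 and 6.6 RPKM in the infant libraries, against 6.2, 5.8 and 8.6 RPKM in the young adult ones (log2 fold change -0.11 ± 0.15, limma adjusted p 0.619). Its groups overlapped as well, and it was above Egln1 in all 6 libraries.

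Vhl (chromosome 6, 113623994 to 113631634), which encodes the subunit that recognises hydroxylated HIF alpha, measured 6.4, 6.1 and 5.9 RPKM in infants, and in young adults it was at 4.1, 4.6 and 4.7 RPKM. Every young adult library was lower than every infant library. The means were 6.13 ± 0.252 and 4.47 ± 0.321 RPKM (SD, n = 3 each), a ratio of 0.728, with a log2 fold change of -0.39 ± 0.10 (SE, 95% interval -0.61 to -0.16, limma adjusted p 0.0247). Vhl did not pass in 5 of the 6 fits that left out 1 library. The adjusted p became 0.0799 or 0.0611 when infant replicate 1 or 3 was left out and 0.0818, 0.0716 or 0.0506 when young adult replicate 1, 2 or 3 was, and quantile normalization gave 0.101.

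Of the target genes among the 8, Adm (chromosome 7, 110627657 to 110629820, transcript NM_009627), whose promoter is printed above, measured 4.1, 3.1 and 2.7 RPKM (infant) and 1.1, 0.8 and 0.8 RPKM (young adult). The lowest infant library was above the highest young adult library. The mean was 3.30 ± 0.721 RPKM in infant and 0.900 ± 0.173 RPKM in young adult libraries (SD, n = 3 each), a ratio of 0.273. The infant libraries thus had 3.67 times the level of the young adult ones. On the log2(RPKM + 1) scale the fold change was -1.17 ± 0.15 (SE, 95% interval -1.52 to -0.81, limma adjusted p 0.00312). Adm was called in all 6 fits without 1 library, and with a pseudocount of 5 it passed the test (adjusted p 0.00539, range over 22 alternatives 0.000713 to 0.0219) but not the fold threshold. Rounding to 0.1 RPKM is coarse for the young adult values. The 10 early response genes, which tissue digestion is known to induce, summed to 659.6 to 975.3 RPKM in infant and to 271.3 to 359.3 RPKM in young adult libraries, with 6 of 10 called lower, and their part in the level of Adm was not tested.

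Ndrg1 (chromosome 15, 66929318 to 66969641, transcript NM_008681) went the opposite way. It measured 2.7, 2.4 and 2.6 RPKM in the infant libraries, against 5.5, 5.3 and 4.4 RPKM in the young adult ones. Every young adult library exceeded every infant one. The mean was 2.57 ± 0.153 and 5.07 ± 0.586 RPKM (SD, n = 3 each), a ratio of 1.97, with a log2 fold change of 0.76 ± 0.11 (SE, 95% interval 0.50 to 1.02, limma adjusted p 0.0045). The ratio of means was over the study's fold threshold, but the fold change with the pseudocount of 1 stayed under 0.81. Ndrg1 was called with a pseudocount of 0.1 (0.95), under quantile normalization (0.96) and median ratio scaling (0.82), and without young adult replicate 3 (0.84). After rescaling to the endothelial markers it did not pass (0.38, limma adjusted p 0.132).

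Under quantile normalization the median log2 fold change over all genes lay 0.12 higher than on the deposited scale, and rescaling to the summed endothelial markers changed it by -0.41. Relative to the median of all genes, the deposited scale and 5 others (these 2, median ratio, upper quartile and no globin genes) gave -0.41 to -0.39 for Hif1a, -0.32 to -0.29 for Vhl, -1.11 to -0.94 for Adm, 0.83 to 0.92 for Ndrg1, 0.28 to 0.55 for Epas1 and 0.08 to 0.14 for Egln1. All of these but quantile normalization multiply each library by 1 factor, which the subtraction largely removes, so the narrow ranges are no sign of stability. Without the subtraction, Epas1 was at -0.02 and Egln1 at -0.39 when rescaled to the endothelial markers.

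Within infant EC the order of mean RPKM was Epas1, Hif1a, Vhl, Egln1, Adm and Ndrg1. Egln1 and Adm overlapped, and Adm and Ndrg1 met at 2.7 RPKM. Within young adult EC the order was Epas1, Hif1a, Ndrg1, Vhl, Egln1 and Adm, where Ndrg1 overlapped Vhl and Vhl overlapped Egln1. Ndrg1 thus stood last in infant EC and next to Hif1a in young adult EC.

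For the 3 genes with a mean of at least 5 RPKM, the profile over the 6 libraries was matched with 6981 other genes of at least that mean. The Pearson correlations describe 6 points that share libraries and fall into both age groups, and carry no p. Closest to Hif1a were Ets1 (0.998), which encodes an endothelial transcription factor, Rsph3a (0.994) and Rnft1 (0.991). Ets1 measured 154.0, 153.5 and 157.1 RPKM in infants, and in young adults it was at 106.6, 101.4 and 91.2 RPKM. Closest to Epas1 were Arhgef15 (0.996), which encodes a guanine nucleotide exchange factor of EC, Lrrfip1 (0.995) and Hecw2 (0.993). Arhgef15 had its highest infant value, like Epas1, in replicate 2 (116.8 RPKM, against 95.3 and 86.9 RPKM in replicates 1 and 3). Closest to Vhl were Apoe (0.998), Abhd10 (0.996) and 2700060E02Rik (0.994).

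**Figure D3:**
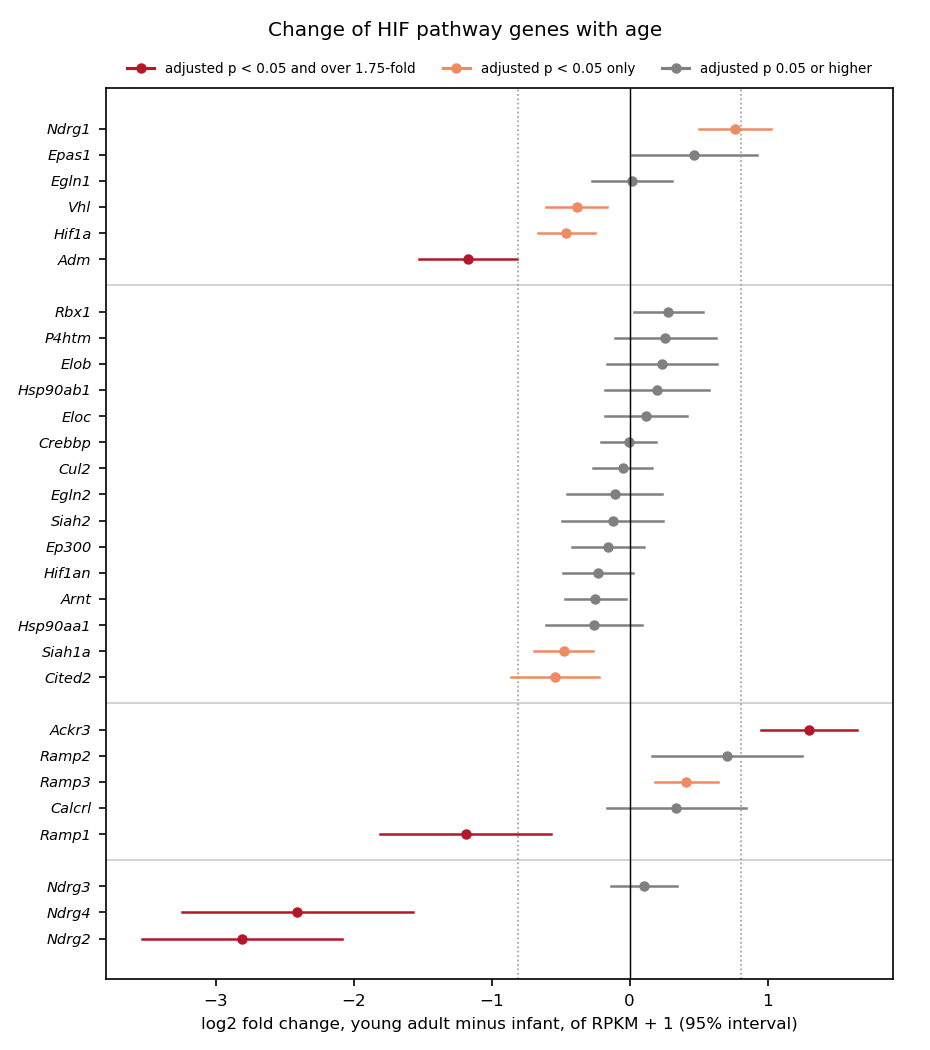
Log2 fold change of RPKM + 1, young adult minus infant, with its 95% interval from limma (horizontal axis). Blocks from top to bottom are the 6 measured genes, 15 partners and regulators of HIF, 5 adrenomedullin receptor genes and 3 further Ndrg genes, and dotted lines mark the fold threshold. None of the 15 partners is called, while Ackr3 (1.30), Ramp1 (-1.19), Ndrg2 (-2.81) and Ndrg4 (-2.41) are.

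Partners and regulators of HIF were then taken as a list of 16 genes, of which 15 were tested and Arnt2 had no matching row. 0 of the 15 were called by limma, against 11.4% of all genes, and 4 had an unadjusted p under 0.05. With a pseudocount of 0.1, and after rescaling to the endothelial markers, 1 was called. Their median log2 fold change was -0.11, against -0.07 over all genes, and 2 passed the test (13.3%, against 25.5% of all genes), both lower. These were Siah1a, which encodes a ubiquitin ligase acting on Egln proteins (10.2, 11.5 and 10.8 RPKM in infants and 7.9, 7.1 and 7.5 RPKM in young adults, log2 fold change -0.48, limma adjusted p 0.0117), and Cited2, which encodes a competitor for the coactivators of HIF (-0.54, adjusted p 0.0272, at most 1.4 RPKM). Without young adult replicate 2 Siah1a did not pass (0.0528), and Cited2 passed only without infant replicate 2 among the fits without 1 library. Both were named after their values were seen.

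Arnt, the beta subunit gene, measured 15.5, 15.3 and 13.4 RPKM (infant) and 11.8, 12.9 and 12.0 RPKM (young adult). The groups did not overlap, but the log2 fold change of -0.25 ± 0.10 did not pass (limma adjusted p 0.094). Its level was above that of Hif1a and far under that of Epas1 in every library. Hif1an, which encodes the asparagine hydroxylase that blocks coactivator binding, measured 6.0, 4.7 and 5.7 RPKM in the infant libraries, against 4.4, 4.7 and 4.4 RPKM in the young adult ones (-0.23, adjusted p 0.16). The most abundant genes of the list were the chaperone gene Hsp90ab1 (320.7 ± 43.3 and 368.2 ± 45.2 RPKM), Elob, listed under its older symbol Tceb2 (95.1 ± 23.1 and 109.9 ± 4.51 RPKM), and Rbx1 (58.9 ± 4.74 and 71.7 ± 4.77 RPKM), the last 2 of which encode subunits of the ligase that VHL belongs to. None of these 3 passed, with adjusted p of 0.392, 0.349 and 0.093.

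Adrenomedullin acts through the receptor encoded by Calcrl together with Ramp2 or Ramp3, and Ackr3 encodes a receptor that binds and removes it. While Adm was at 0.8 to 4.1 RPKM, the genes of its main receptor pair, Calcrl and Ramp2, were far more abundant. Calcrl measured 960.3, 1310 and 879.5 RPKM in infants, and in young adults it was at 1379, 1376 and 1175 RPKM, and the groups overlapped (log2 fold change 0.34 ± 0.22, limma adjusted p 0.282). Without infant replicate 2 it passed (0.51, adjusted p 0.0399), and without infant replicate 3 its log2 fold change was 0.22 (adjusted p 0.543). Ramp2 measured 258.3, 448.5 and 258.8 RPKM (infant) and 463.3, 505.3 and 555.7 RPKM (young adult), and infant replicate 2 stood near the young adult libraries here too (0.70 ± 0.23, adjusted p 0.0619). That library decided the call, since Ramp2 was called without it (0.97, limma adjusted p 0.000998) and with weights estimated for each library (0.86, adjusted p 0.00676), and in none of the other 5 fits without 1 library.

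Ackr3 rose, with 20.4, 17.8 and 21.7 RPKM in the infant libraries, against 62.7, 47.1 and 43.5 RPKM in the young adult ones. All young adult libraries were above all infant ones (log2 fold change 1.30 ± 0.15, limma adjusted p 0.00209), and the call held in the 6 fits without 1 library. Ramp3 passed under the fold threshold (0.41, adjusted p 0.0224), and without infant replicate 1 or any 1 young adult library it did not pass (0.0516 to 0.0845). It and Ramp1 were named after their values were seen. Ramp1, whose protein pairs with the same receptor for a related peptide, measured at most 2.9 RPKM and was called lower (-1.19, adjusted p 0.0182), a call lost without infant replicate 1 or 3 and without young adult replicate 1 or 2 (adjusted p 0.0635 to 0.0759). In all, 2 of 5 genes were called (40.0%, against 11.4% of all genes) and 3 passed (60.0%, against 25.5%). The called genes were Ackr3 and Ramp1. Calcrl, Ramp2 and Ramp3, whose products form the receptors through which adrenomedullin acts, were not called.

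None of the 3 further Ndrg genes passed in the direction of Ndrg1. Ndrg2 measured 24.2, 11.9 and 27.6 RPKM in infants, and in young adults it was at 1.3, 2.9 and 2.0 RPKM (log2 fold change -2.81 ± 0.31, limma adjusted p 0.0018). Ndrg4 measured 11.2, 3.4 and 10.3 RPKM against 0.4, 0.7 and 0.7 RPKM (-2.41 ± 0.36, adjusted p 0.00472). In both, infant replicate 2 was the lowest infant library, as it was for the fibroblast and mural marker sums, and the part of those cells was not tested. Ndrg3, the most abundant of the family, measured 44.7 ± 1.93 and 48.2 ± 4.33 RPKM and did not pass (0.10, adjusted p 0.481).

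**Figure D4:**
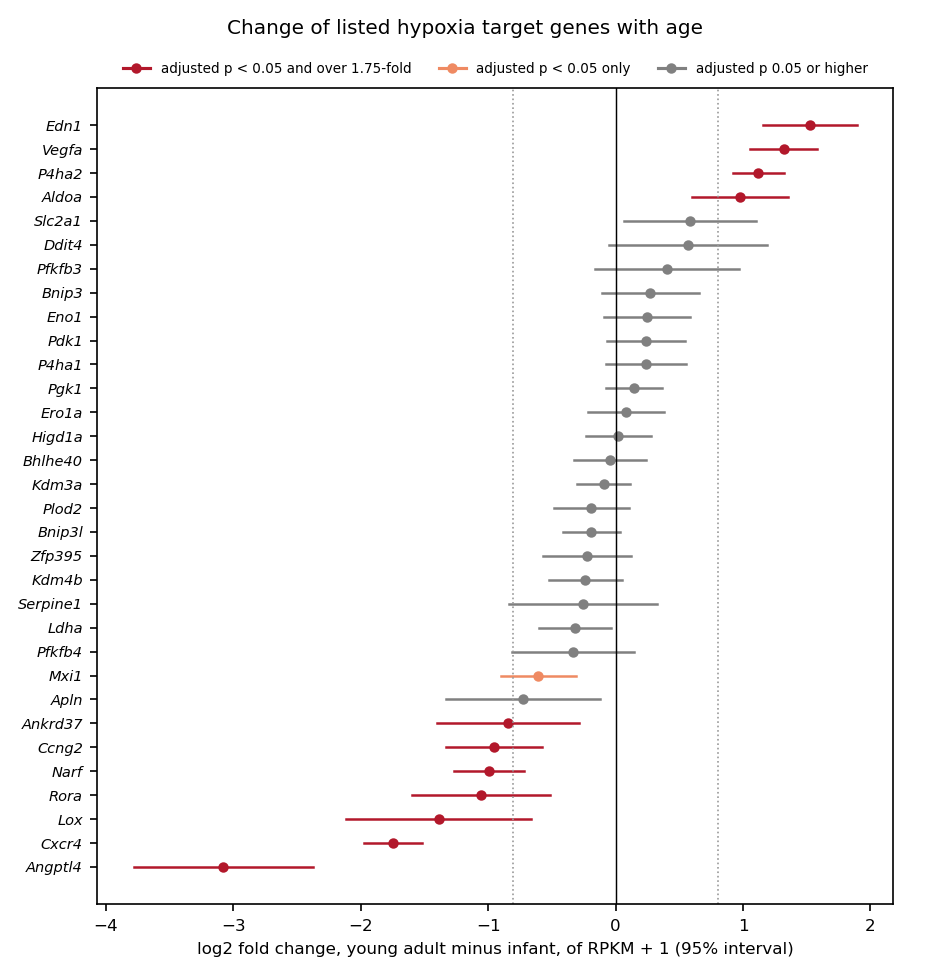
Log2 fold change of RPKM + 1, young adult minus infant, with its 95% interval from limma (horizontal axis) for the 32 tested genes of a list of hypoxia target genes, ordered by size. Dotted lines mark the fold threshold. 4 genes are called higher, up to 1.53 for Edn1, and 7 lower, down to -3.08 for Angptl4.

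Finally, genes known to be induced by HIF in various cells were taken as a list of 37, of which 32 were tested and 5 matched no row. 11 were called (34.4%, against 11.4% of all genes), 4 higher and 7 lower, and 12 passed the test (37.5%, against 25.5%). Like the 8 genes and the other lists, this list was chosen with earlier results of these data known. Such shares are therefore a description and no test of a list. The median log2 fold change was -0.14, against -0.07 over all genes, with 14 genes higher and 18 lower whether or not they passed.

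Among the genes called higher were secreted products. Edn1, which encodes the vasoconstrictor endothelin, measured 14.3, 18.6 and 13.3 RPKM (infant) and 41.2, 55.1 and 42.2 RPKM (young adult) (log2 fold change 1.53 ± 0.16, limma adjusted p 0.00148). Vegfa, which encodes the main vessel growth factor, rose from 5.8, 6.3 and 6.5 RPKM to 19.4, 16.8 and 14.9 RPKM (1.32, adjusted p 0.000958). P4ha2, which encodes a collagen prolyl hydroxylase, rose from 6.73 ± 0.351 to 15.8 ± 0.436 RPKM (1.12, adjusted p 0.000642), and the glycolytic gene Aldoa from 178.5 ± 26.3 to 350.9 ± 43.0 RPKM (0.97, adjusted p 0.007). These 4 were called in each of the 6 fits without 1 library. After rescaling to the endothelial markers P4ha2 (0.67) and Aldoa (0.48) passed without reaching the fold threshold.

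Among the genes called lower, Angptl4, which encodes an inhibitor of lipoprotein lipase, measured 16.5, 7.4 and 15.8 RPKM in the infant libraries, against 0.2, 0.8 and 0.9 RPKM in the young adult ones (log2 fold change -3.08 ± 0.30, limma adjusted p 0.00128). Cxcr4, a chemokine receptor gene typical of sprouting EC, measured 8.0, 7.6 and 8.6 RPKM in infants, and in young adults it was at 1.8, 1.7 and 1.6 RPKM. Its groups were narrow and far apart (-1.75 ± 0.10, adjusted p 0.000237). Rora (-1.06, adjusted p 0.0172), a nuclear receptor gene, was lowest in infant replicate 2 of the infant libraries, as Angptl4 was, and lost its call without infant replicate 3 or young adult replicates 1 or 2. Narf, which encodes a nuclear protein, fell from 8.5, 6.4 and 7.9 RPKM to 3.1, 3.3 and 3.5 RPKM (-0.99, adjusted p 0.00227). The remaining calls, Lox (-1.39), Ccng2 (-0.95) and Ankrd37 (-0.84), lay outside the rule for named genes and were named after their values were seen. Of the 6 fits without 1 library, the call was lost in 4 for Lox, in 1 for Ccng2 and in 5 for Ankrd37. Lox measured 3.9, 0.9 and 1.8 RPKM (infant) and 0.1, 0.2 and 0.1 RPKM (young adult). Like Rora and Angptl4, it was lowest in infant replicate 2 of the infant libraries, and so were Cxcr4, Narf and Ccng2. Ankrd37 was highest there. The fibroblast and mural marker sums were also lowest in that infant library, and the part of those cells was not tested.

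The most abundant genes of the list apart from Aldoa were glycolytic. Ldha measured 96.7 ± 11.9 and 77.2 ± 4.46 RPKM (log2 fold change -0.32, limma adjusted p 0.0931) and Eno1 57.1 ± 9.64 and 67.5 ± 6.03 RPKM (0.25, adjusted p 0.238). Neither passed, and their estimates had opposite signs.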

How the data were processed

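The authors aligned paired-end reads to mm10 with STAR and tested genes with DESeq2 on RefSeq (versions not given in the sources used here). The deposited values are the authors' RPKM, with a column for each library and 17241 rows, each a RefSeq transcript, with 0 further value columns. The program behind them and the depth of each library are not given in the sources used here. An RPKM is relative to its library, so abundant transcripts lower the rest. 24 symbols turned into dates were restored by accession, and the row with the highest mean RPKM was kept for each of 12623 genes. Because the unit was not counts, limma 3.58.1 (R 4.3.3; lmFit, eBayes with trend) was run on log2(RPKM + 1) for the 12458 genes reaching 1 RPKM in at least 1 library, with age as the only term. The filter follows the study. Its fold threshold, which the authors set on their own test of counts, was applied here to log2(RPKM + 1) (0.81), which is stricter for low genes. The script was tested on simulated data. Ratios were compared by exact permutation (scipy 1.17.1). Libraries were grouped by title. The series' design text describes them as biologically independent.

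The genes and lists were chosen with earlier results of these data known. Named in the text were the 8 genes and, from each list, called genes with a mean of at least 5 RPKM in either group (at most 8 by size of change), the 3 most abundant genes, and Egln2, Arnt and Hif1an. For genes of at least 5 RPKM, the 3 most similar profiles were named. Alternatives were pseudocounts, filters, scalings, eBayes settings, weights, a replicate block, transcript rows, thresholds and leaving out each library. Rescaling to the endothelial markers was added after seeing the data. The planned ratio of Egln3 to Egln1 was not computed because Egln3 matched no row. Promoters are RefSeq, GRCm38.p6, whose chromosome coordinates are those of mm10, and positions are whole genes of that annotation.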

Additional observations from a re-analysis of the deposited data

How the results depend on the processing

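With all genes, 1424 were called, and 842 to 1874 in the fits without 1 library (842 without young adult replicate 1, 867 without young adult replicate 2, 927 without infant replicate 1, 949 without infant replicate 3). A pseudocount of 5 gave 578, limma treat against the fold threshold 176, an adjusted p under 0.05 alone 3176 and rescaling to the summed endothelial markers, chosen after seeing the data, 2608. The share of calls that were higher was 29.1%, 46.5% under quantile normalization, 41.5% with a pseudocount of 5 and 7.25% after the endothelial rescaling. Of the 6 measured genes, 1 was called, and 2 with a pseudocount of 0.1, under quantile normalization, under median ratio scaling and after the endothelial rescaling, 0 with a pseudocount of 5 and under treat, 4 by adjusted p alone, and 1 to 2 without 1 library. HIF partners gave 1 with a pseudocount of 0.1, 1 after the endothelial rescaling and 2 by adjusted p alone, instead of 0. Hypoxia targets gave 6 with a pseudocount of 5 and 2 under treat, instead of 11. Adrenomedullin receptor genes gave 1 with a pseudocount of 5, 0 under treat and 1 to 3 without 1 library, instead of 2. A larger pseudocount shrinks the fold changes of low genes by construction, and otherwise the cause was not tested.

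The sign turned for Egln1 (-0.069 without globin genes, -0.39 after the endothelial rescaling, and -0.097 to 0.086 in the fits without 1 library) and Hsp90ab1 (-0.002 under quantile normalization, -0.29 after the endothelial rescaling). After that rescaling, which lowered the median of all genes, it also turned for Epas1 (-0.024), Ramp3 (-0.015), Tceb2 (-0.26), Rbx1 (-0.21), Eno1 (-0.24), Calcrl (-0.16) and Ndrg3 (-0.38). None of these was called under either setting. The ratio of Epas1 to Hif1a kept its direction under its 10 alternatives, but most of these could not turn it. Both genes have 1 transcript row, so the settings for transcript rows changed nothing. Its groups did not overlap, so leaving out 1 library could not reverse the difference. Of 827 values of single genes under alternatives, 753 kept direction and side of the threshold. Several alternatives, among them the filters and the eBayes settings, leave the fold change itself as it was. The share is thus no measure of stability.

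Deviations of same-numbered libraries from their group means correlated at 0.0282, -0.11 and -0.0208, and those of differently numbered libraries at -0.122 to 0.111. No pairing by replicate number was thus seen, but so few libraries cannot exclude it. With the replicate block 1371 genes and 1 of the 6 measured genes were called. The limma adjusted p rose to 0.0675 for Vhl and fell to 0.0677 for Epas1. Rounding to 0.1 RPKM limits the precision of genes with low values, among them Lox, Ramp1, Angptl4, Ndrg4, Cited2 and Adm in young adult EC.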

Other observations

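The vessel tip gene Apln, a hypoxia target chosen here after its values were seen, was at 43.2, 67.3 and 46.1 RPKM (infant) and at 27.0, 23.3 and 45.3 RPKM (young adult). Young adult replicate 3 lay among the infant libraries, and without it Apln was called lower (limma adjusted p 0.0783 with it and 0.0278 without). Apln passed in none of the other fits without 1 library. Over 22 alternatives its limma adjusted p ranged from 0.0025 to 0.235.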
